A study of Homo sapiens with 6 samples.

Results

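The post-squalene enzymes of cholesterol synthesis were followed at the RNA level in the human endometrial carcinoma cell line RL95-2, with and without factors released by fat cells. The members were taken by gene symbol, with earlier results of these data known, from the genes whose products close the squalene chain into lanosterol or act between lanosterol and cholesterol, and were LSS, CYP51A1, TM7SF2, LBR, NSDHL, HSD17B7, EBP and DHCR7. These were 8 of the 23228 genes in the count tables, and all 8 were among the 12663 genes that had enough reads to be tested. All cells were grown in RPMI with 10% FBS and then moved to serum-free medium for 24 h. The 3 control libraries came from cells in serum-free RPMI mixed with an equal volume of DMEM. The 3 ADP-CM libraries came from cells in which that DMEM was replaced by adipocyte-conditioned medium, that is, DMEM in which mature adipocytes isolated from human adipose tissue had been kept. The model is a single cell line exposed to medium alone, and the adipocytes were not in the dish. The labels do not say whether replicates were separate cultures, so the p-values measure the spread between these libraries, which may be technical.

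Cholesterol is built in the endoplasmic reticulum from acetyl-CoA through mevalonate and squalene. Once squalene has been oxidised, lanosterol synthase (LSS) folds it into the sterol ring system, and the enzymes that follow strip methyl groups from the ring and move or reduce double bonds. Most of the genes are known targets of SREBP2, the transcription factor that is released from the membrane when sterols run low and that works together with NF-Y and Sp1 at promoters. LBR is unusual among them because its product is also a protein of the inner nuclear membrane that binds lamin B and heterochromatin.

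Libraries held 16262614 to 18363033 reads on genes, and no replicates were alike within sampling noise. Reads that lay on no gene made up 10.2% to 10.3% of everything tallied in control and 11.5% to 11.6% in ADP-CM. The tally includes ambiguous and not uniquely aligned reads. The part of this difference in the results below was not tested. Of 7 epithelial markers 6 were tested, and they were abundant, with a summed level of 3991 to 4062 CPM (read counts scaled to the size of each library, with TMM normalisation) in control and 3314 to 3358 CPM in ADP-CM. EPCAM had a log2 fold change of 0.01 (edgeR adjusted p = 0.9), while the other 5 tested fell. Of 11 adipocyte markers ADIPOQ, LEP and CIDEA were at 0 reads in every library, and only LIPE and C10orf116 (ADIRF), which are not confined to fat cells, could be tested. Both were lower with ADP-CM, and the summed level of the 11 was 53 to 59.5 CPM in control and 29.3 to 33.5 CPM in ADP-CM.

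Promoter sequence was read from the RefSeq table of gene starts (assembly GRCh38.p14), which held all 8 genes, DHCR7 with 2 starts. In windows from 250 bases before to 50 bases after each start, letters of 5 motifs were searched on both strands. The sterol response element core TCACNCCAC and its looser form TCACNNCA were found in 0 of the 9 windows, and over all 35116 promoters they were found in 1.13% and 12.7%. Every match of the core is also a match of the looser form. The NF-Y letters CCAAT were found in 6 of the 9 windows (66.7%), which belong to 6 of the 8 genes, against 34.6% of all promoters. They occurred 5 times in NSDHL, 3 times in EBP, 2 times in HSD17B7 and at the first DHCR7 start, and 1 time in LSS and TM7SF2. The Sp1 letters GGGCGG were present in 6 genes, again in 6 of the 9 windows (66.7%), and in 45.0% of all promoters. The E-box CACGTG was present in 1 of the 9 windows, that of LSS, and in 7.26% of all promoters. CYP51A1 had 1 GGGCGG, and the LBR window held none of the 5 motifs. A missing match says only that these letters are not in this window. The 250 bases before the start are shown, 5′ to 3′ on the gene's own strand with CCAAT or its reverse complement in capitals (CCAATTGG in NSDHL holds 2 overlapping matches), for the 2 genes that encode the same reductase activity, for NSDHL, which had the most matches, and for EBP, whose counts went the other way. They lie at chr11:65111622-65111871 (plus strand), chr1:225428822-225429071 (minus strand), chrX:152830813-152831062 (plus strand) and chrX:48521558-48521807 (plus strand).
TM7SF2: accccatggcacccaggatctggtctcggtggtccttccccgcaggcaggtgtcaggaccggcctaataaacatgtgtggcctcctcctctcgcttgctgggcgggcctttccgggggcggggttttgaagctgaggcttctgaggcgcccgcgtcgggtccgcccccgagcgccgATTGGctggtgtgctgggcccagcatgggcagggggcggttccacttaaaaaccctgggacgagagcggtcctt
LBR: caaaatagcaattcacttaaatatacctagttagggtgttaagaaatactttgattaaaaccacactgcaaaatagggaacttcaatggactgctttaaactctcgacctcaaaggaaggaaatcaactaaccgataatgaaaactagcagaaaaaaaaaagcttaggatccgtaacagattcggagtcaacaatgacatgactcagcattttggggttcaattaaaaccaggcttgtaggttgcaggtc
NSDHL: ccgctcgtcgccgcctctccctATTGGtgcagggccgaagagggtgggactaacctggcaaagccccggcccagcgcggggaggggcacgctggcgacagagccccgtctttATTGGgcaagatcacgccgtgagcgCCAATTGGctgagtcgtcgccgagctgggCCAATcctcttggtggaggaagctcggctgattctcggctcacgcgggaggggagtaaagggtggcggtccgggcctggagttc
EBP: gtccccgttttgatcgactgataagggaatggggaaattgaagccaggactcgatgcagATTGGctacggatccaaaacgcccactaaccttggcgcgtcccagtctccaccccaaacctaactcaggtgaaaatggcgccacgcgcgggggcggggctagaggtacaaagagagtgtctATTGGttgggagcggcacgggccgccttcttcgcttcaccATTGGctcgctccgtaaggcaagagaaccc

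The question was whether these enzymes moved together in cells given adipocyte factors. Of the 8 genes, 6 fell with ADP-CM and 0 rose at an adjusted p under 0.01 (quasi-likelihood test of edgeR, Benjamini-Hochberg adjusted over all tested genes). LSS, CYP51A1, TM7SF2, NSDHL, HSD17B7 and DHCR7 fell, LBR did not pass the test, and EBP was higher without passing it. Over all tested genes, 13.0% fell and 13.5% rose by the same rule. The falls ran from 12.2% for CYP51A1 to 41.3% for TM7SF2, and only TM7SF2 and HSD17B7 also exceeded a fold of 1.5, as did 1.14% of all tested genes among the falls and 1.14% among the rises. The median log2 fold change was -0.29 over the 8 genes and 0.00 over all tested genes, and the median size was 0.34 and 0.11. For 7 of the 8 genes the control and ADP-CM values did not overlap, against 45.5% of all tested genes. Reads on the 8 genes together took 0.0520% to 0.0527% of gene reads in control and 0.0466% to 0.0470% in ADP-CM. In RNA from whole cultures, fewer cells that express a gene and less RNA per cell cannot be told apart.

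**Figure D1:**
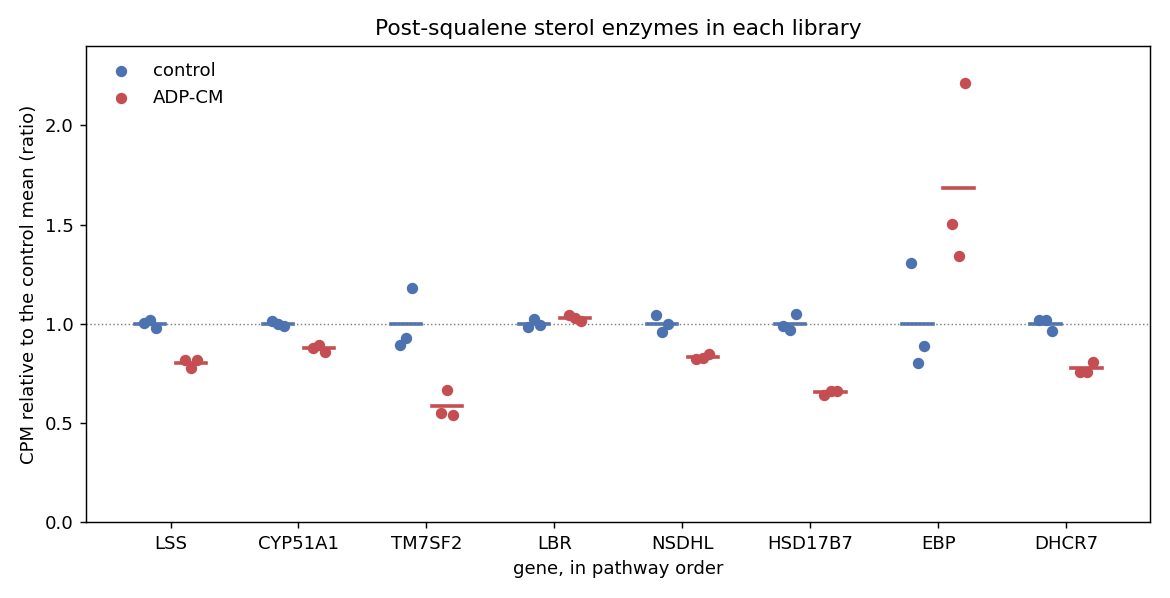
CPM of each gene in each of the 3 control (blue) and 3 ADP-CM (red) libraries, divided by the gene's control mean (vertical axis, ratio), with genes in pathway order and lines at group means. The ADP-CM points lie below the control points for 6 genes, overlap them for LBR and lie above them for EBP.

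LSS, the cyclase that makes lanosterol, is encoded on chromosome 21 at 47608055 to 47648738 (GRCh37, minus strand). It had 63.7, 64.4 and 61.8 CPM in control replicates 1, 2 and 3 and 51.9, 49.1 and 51.8 CPM in ADP-CM replicates 1, 2 and 3. Every ADP-CM library was below every control library. The control mean was 63.3 ± 1.35 CPM and the ADP-CM mean 50.9 ± 1.57 CPM (each ± SD over 3 libraries, here and for the genes that follow), and LSS fell with a log2 fold change of -0.31 (SE 0.042, 95% interval -0.40 to -0.23, edgeR adjusted p = 8.11e-09). In the annotation used for positions, which is not the one used for counting, antisense lncRNA genes cover 7.88% of its exonic bases. The strand setting of the counting is not given in the sources used here.

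CYP51A1 is the cytochrome P450 that removes the first methyl group from lanosterol, and it lies on chromosome 7 at 91714301 to 91764117 (minus strand). Its levels were 146, 144 and 143 CPM in control and 127, 129 and 124 CPM in ADP-CM. The groups were well separated although the change was the smallest of the 6 falls. CYP51A1 fell from 144 ± 1.56 to 127 ± 2.48 CPM, a log2 fold change of -0.19 (SE 0.030, 95% interval -0.25 to -0.13, edgeR adjusted p = 5.13e-07). In the newer annotation used for positions (GENCODE release 44), 68.2% of its exonic bases are shared with further protein-coding models on the same strand, and 19.1% of its 50-base exonic windows have another exact copy in the genome. AKAP9, which overlaps it on the opposite strand, had a log2 fold change of -0.03 (edgeR adjusted p = 0.629).

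TM7SF2 and LBR encode the 2 sterol reductases that take the next step, the reduction of the double bond left by CYP51A1. TM7SF2 is on chromosome 11 at 64879317 to 64883856 (plus strand) and had 71, 77 and 99 reads in control and 49, 60 and 49 reads in ADP-CM. As levels these were 4.38, 4.56 and 5.79 CPM against 2.71, 3.27 and 2.66 CPM, so that the highest ADP-CM library was below the lowest control library. TM7SF2 fell 1.70-fold, from 4.91 ± 0.768 to 2.88 ± 0.339 CPM, with a log2 fold change of -0.77 (SE 0.16, 95% interval -1.09 to -0.45, edgeR adjusted p = 7.93e-05). Without control replicate 3, the highest library, the log2 fold change was -0.63 (edgeR adjusted p = 0.00528).

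LBR is on chromosome 1 at 225589204 to 225616627 (minus strand). Its level was 163, 169 and 164 CPM in control and 173, 170 and 168 CPM in ADP-CM. The ranges overlap, since ADP-CM replicate 3 was below control replicate 2. The log2 fold change was 0.04 (SE 0.028, 95% interval -0.01 to 0.10, edgeR adjusted p = 0.231), so that falls of the size seen for the other members lay outside the interval. With means of 165 ± 2.75 and 170 ± 2.85 CPM LBR was also the member with the most reads, above 89.1% of all tested genes.

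The levels of both reductases can also be given as shares of their sum, which restates the values above. Per kilobase of merged exons, TM7SF2 made up 4.30%, 4.34% and 5.57% of the summed TM7SF2 and LBR signal in control and 2.55%, 3.12% and 2.59% in ADP-CM. These 2 sets of shares did not overlap, and their means were 4.73% ± 0.723 and 2.75% ± 0.320 (exact permutation test, two-sided, p = 0.1, the smallest that 3 against 3 libraries allow). The summed level itself was 30.4 ± 0.494 CPM per kb in control and 30.7 ± 0.504 in ADP-CM (exact permutation test, two-sided, p = 0.6). As TM7SF2 was at most 5.57% of the sum, the sum is mostly LBR and cannot show a change of TM7SF2.

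**Figure D2:**
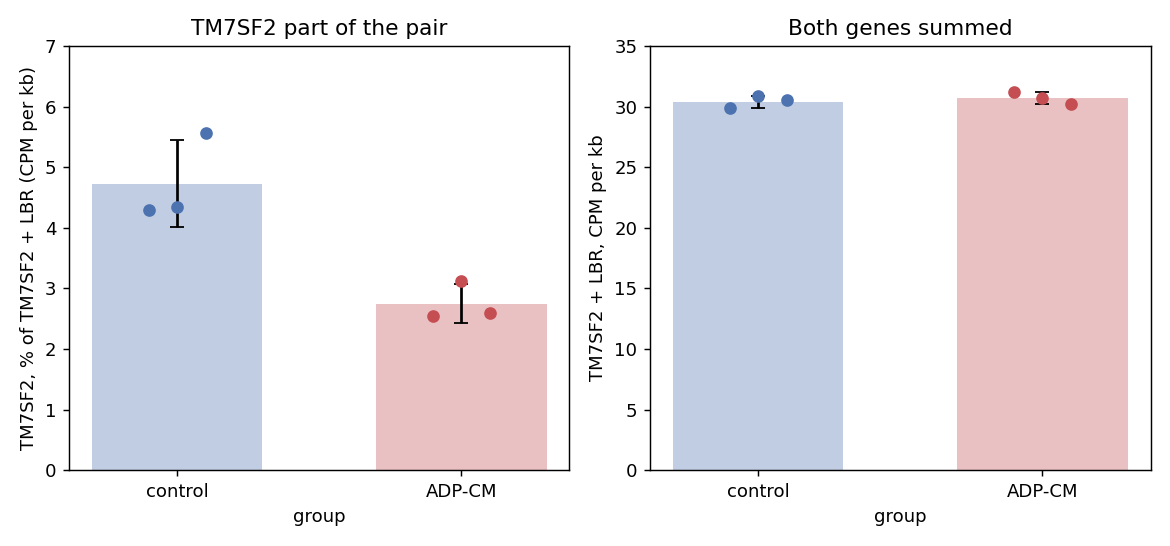
Left, TM7SF2 as a percentage of TM7SF2 plus LBR, both in CPM per kb of merged exons; right, the sum of both in CPM per kb. Bars are means, error bars SD and points the 3 libraries of each group. The TM7SF2 share was 4.73% in control and 2.75% in ADP-CM, and the sums, which are mostly LBR, were 30.4 and 30.7.

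NSDHL and HSD17B7 act on the same methyl groups, NSDHL as the dehydrogenase that removes the carboxylated carbon and HSD17B7 as the ketone reductase that closes each round. NSDHL, on chromosome X at 151999511 to 152038273 (plus strand), had 45.4, 41.8 and 43.4 CPM in control and 35.8, 36.0 and 36.8 CPM in ADP-CM. No ADP-CM library reached the control range. NSDHL fell from 43.5 ± 1.78 to 36.2 ± 0.518 CPM, a log2 fold change of -0.26 (SE 0.050, 95% interval -0.36 to -0.16, edgeR adjusted p = 1.59e-05). CETN2, a centriole gene that starts 209 bases away on the opposite strand and was looked up after the values had been seen, also fell, with a log2 fold change of -0.28 (edgeR adjusted p = 1.45e-06). ZNF185, on the other side of NSDHL, fell by 0.21 on the log2 scale (edgeR adjusted p = 0.000657).

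HSD17B7, on chromosome 1 at 162760492 to 162782613 (plus strand), had 150, 153 and 168 reads in control and 109, 114 and 114 reads in ADP-CM. These were 9.25, 9.06 and 9.82 CPM against 6.02, 6.22 and 6.20 CPM. All 3 ADP-CM libraries lay close together, well under the control range. The mean fell 1.53-fold, from 9.38 ± 0.398 to 6.15 ± 0.108 CPM, a log2 fold change of -0.61 (SE 0.11, 95% interval -0.83 to -0.39, edgeR adjusted p = 6.71e-06). Without control replicate 3 it was -0.57, under the fold of 1.5, so that TM7SF2 alone stayed past it. Of the 50-base windows in its exons, 46.9% have another exact copy in the genome, so many of its reads cannot be placed at 1 site. Its pseudogene HSD17B7P2 had 0.0403 CPM in control and 0.0552 CPM in ADP-CM and was not tested.

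EBP, the isomerase that moves the ring double bond once the methyl groups are gone, is on chromosome X at 48380187 to 48387104 (plus strand). It had 25, 16 and 18 reads in control and 32, 29 and 48 reads in ADP-CM, or 1.54, 0.948 and 1.05 CPM against 1.77, 1.58 and 2.61 CPM. Every ADP-CM library was above every control library, though ADP-CM replicate 2 lay just above control replicate 1. The log2 fold change was 0.75 (SE 0.25, 95% interval 0.25 to 1.26, edgeR adjusted p = 0.0139), which misses the limit of 0.01. Leaving out single libraries moved it between 0.51 without ADP-CM replicate 3 (edgeR adjusted p = 0.166) and 0.98 without control replicate 1 (edgeR adjusted p = 0.00736). The interval lies above 0, while those of the 6 genes that fell lie below it. Of its exonic bases, 36.4% are shared with a protein-coding model on the same strand, and only 7.30% of all tested genes had fewer CPM. HTSeq can leave out reads on bases that gene models share, and whether the EBP level is too low for that reason was not tested.

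DHCR7, the reductase that turns dehydrocholesterol into cholesterol, is on chromosome 11 at 71139239 to 71163914 (minus strand). It had 94.7, 94.8 and 89.9 CPM in control and 70.6, 70.7 and 75.3 CPM in ADP-CM. The gap between the groups was wider than the range within either. DHCR7 fell from 93.1 ± 2.76 to 72.2 ± 2.68 CPM, a log2 fold change of -0.37 (SE 0.037, 95% interval -0.44 to -0.29), and it had the smallest adjusted p of the 8 genes (edgeR adjusted p = 6.94e-13). NADSYN1, which starts 240 bases away on the opposite strand, had a log2 fold change of 0.05 (edgeR adjusted p = 0.618).

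**Figure D3:**
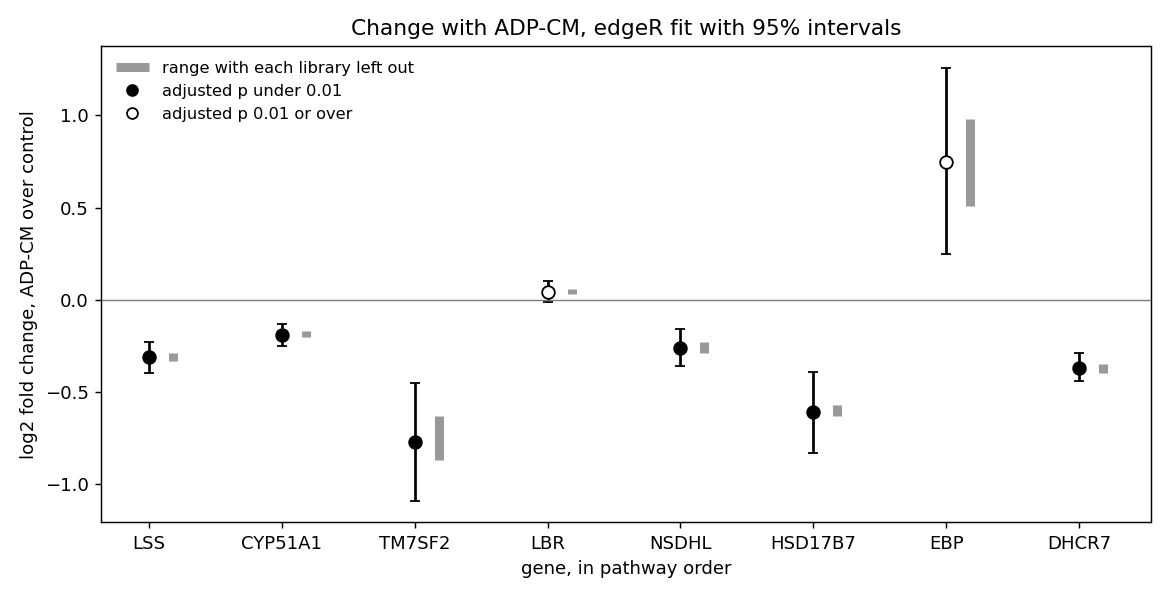
Log2 fold change of ADP-CM over control for each gene in pathway order, with 95% intervals from edgeR; filled points had an adjusted p under 0.01, and grey bars span the values with each library left out. Filled points run from -0.77 to -0.19, LBR is at 0.04 and EBP, with the widest interval, at 0.75.

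The genes differed far more from each other in level than between groups. Per kilobase of merged exons, control levels were highest for CYP51A1 at 34.6 ± 0.375 CPM per kb, followed by LBR at 29.0 ± 0.482, NSDHL at 21.8 ± 0.893, DHCR7 at 13.5 ± 0.401 and LSS at 8.75 ± 0.186. HSD17B7 at 1.96 ± 0.0833, TM7SF2 at 1.44 ± 0.225 and EBP at 0.668 ± 0.179 had the lowest counted levels. The EBP value may be too low, which was not tested. The values of HSD17B7 and CYP51A1 may be too low as well. Of their 50-base windows 46.9% and 19.1% are repeated, against 0% for LBR, and reads without a unique alignment were not counted. These windows are part of the lengths used. In control no neighbours in this order overlapped. In ADP-CM, CYP51A1 at 30.4 ± 0.594 and LBR at 29.9 ± 0.499 CPM per kb overlapped, and so did HSD17B7 at 1.28 ± 0.0226 with EBP at 1.12 ± 0.310, and EBP with TM7SF2 at 0.845 ± 0.0996. With the longest transcript in place of merged exons, DHCR7 stood above NSDHL in both groups, and in ADP-CM LBR stood above CYP51A1.

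**Figure D4:**
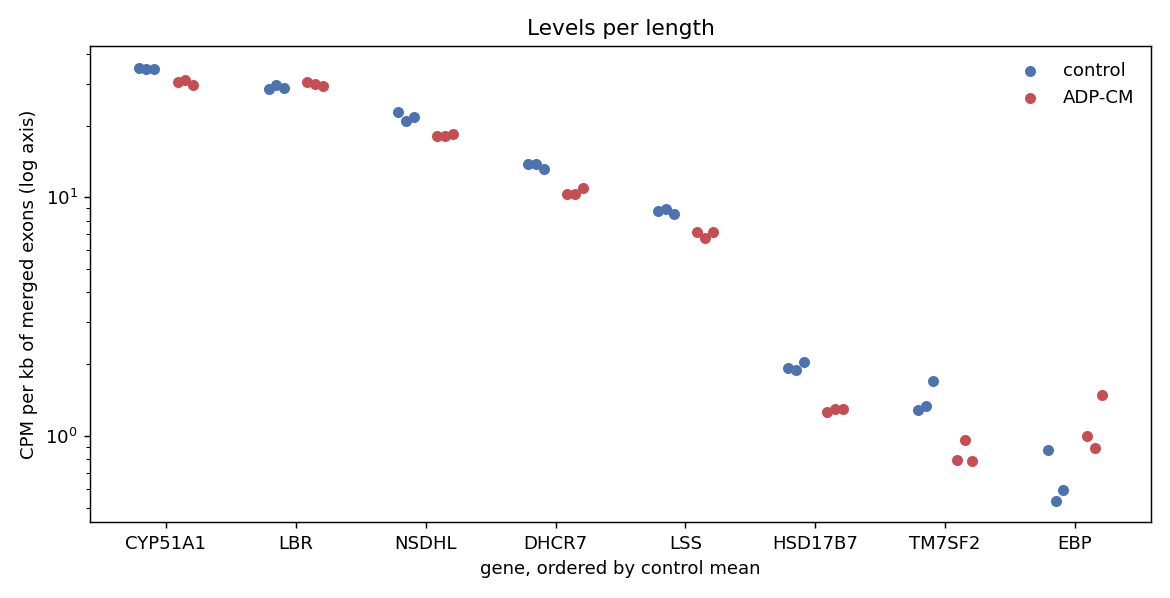
Level of each gene per library in CPM per kb of merged exons (log axis), for 3 control (blue) and 3 ADP-CM (red) libraries, ordered by control mean. In control the means run from 34.6 for CYP51A1 to 0.668 for EBP, and in ADP-CM the 3 lowest genes lie between 0.782 and 1.48.

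The spread between replicates was set beside the error that counting reads alone gives. In 10 of the 16 combinations of gene and group, the coefficient of variation over 3 libraries was below the counting error, and the largest excess was 1.66-fold. A coefficient from 3 libraries is imprecise, and whether this count differs from what counting alone gives was not tested. For EBP the coefficients were 26.8% in control and 27.6% in ADP-CM against counting errors of 22.5% and 16.6%. For LBR they were 1.66% and 1.67% against 1.90% and 1.79%. Those of HSD17B7 were 4.25% and 1.76% against 7.98% and 9.44%, so its small SDs understate the error of its level. TM7SF2 and EBP had the largest coefficients in both groups, and the fitted intervals of TM7SF2, HSD17B7 and EBP, the genes with the fewest reads, were the widest.

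Other genes that act between lanosterol and cholesterol also fell for the most part. Of 10 such genes 8 were tested, 6 fell and 0 rose, where 13.0% of all tested genes fell and 13.5% rose. The median log2 fold change of these 8 was -0.29, against 0.00 over all tested genes. The falls included C14orf1 (ERG28), the scaffold that holds the demethylating enzymes together, at -0.60, SC4MOL (MSMO1), the methyl sterol oxidase, at -0.57 and SC5DL (SC5D), the desaturase that precedes DHCR7, at -0.37. Their edgeR adjusted p-values were 5.3e-20, 2.21e-20 and 1.28e-10. POR and PGRMC1, which serve many P450 enzymes, had log2 fold changes of -0.05 and did not pass the test. The falls also included CYB5B at -0.21 (edgeR adjusted p = 1.77e-09) and CYB5R3 at -0.16 (edgeR adjusted p = 1.45e-05), smaller than those above. Upstream of LSS, 8 of 10 mevalonate and squalene genes fell and 0 rose, with a median of -0.37. HMGCS1, which makes HMG-CoA, fell from 227 to 113 CPM (edgeR adjusted p = 1.85e-38), while PMVK and ACAT2 did not pass the test. ACAT2 had only 0.598 and 0.565 CPM, and whether its reads were fully counted was not tested. Of 14 tested genes of sterol sensing, uptake and export, 4 fell and 3 rose, with a median of -0.05. Among them SREBF2, which encodes SREBP2, fell by 0.27 on the log2 scale (edgeR adjusted p = 1.21e-11), INSIG1, which retains the SREBP complex, fell by 0.63 (edgeR adjusted p = 9.94e-20) and SREBF1 rose by 0.45 (edgeR adjusted p = 3.85e-19).

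LBR was also set beside the genes of its other role. Of 15 nuclear envelope and heterochromatin genes, 7 fell and 0 rose, where 13.0% of all tested genes fell and 13.5% rose. The log2 fold changes of the 15 ran from -0.26 to 0.09. Their median was -0.11, against 0.00 over all tested genes. LMNB1, the lamin that LBR binds, fell by 0.26 (edgeR adjusted p = 2.23e-13) and CBX5, a heterochromatin protein, fell by 0.22 (edgeR adjusted p = 3.74e-12). EBPL, the relative of EBP, had 51.2 and 54.6 CPM, a log2 fold change of 0.09 and an edgeR adjusted p of 0.0925. TMEM97, of the same fold, fell by 0.22 (edgeR adjusted p = 5.99e-08).

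Likeness of profile was measured as the root mean square difference of centred log2 CPM over the 6 libraries, among genes with a mean of at least 10 CPM. The nearest gene to HSD17B7 was C14orf1, at 0.0349, a gene of the same pathway. TXNRD1, which is not in the pathway lists, was almost as near at 0.0351, and a gene of the mevalonate list followed at 0.0362. Nearest to the other members were ATP6AP1 for LSS (0.0173), FAM178A for CYP51A1 (0.0061), CCNE2 for TM7SF2 (0.142), SYMPK for LBR (0.00893), ANKRD33B for NSDHL (0.0116), PRSS22 for EBP (0.210) and CXCL16 for DHCR7 (0.0298). None of these 7 is in the pathway lists. The scarce TM7SF2 and EBP had the most distant nearest genes.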

How the data were processed

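RNA of 3 control and 3 ADP-CM libraries was sequenced from stranded mRNA libraries as 50 bp single reads. The authors aligned them to hg19 with TopHat2, used HTSeq to count reads on RefSeq genes, and deposited these counts without normalisation. Program versions and the strand setting of the counting are not given in the sources used here. Reads without a unique alignment (20.5% to 20.8% of everything tallied), ambiguous reads (0.709% to 0.721%) and reads on no gene stayed out of library sizes and tests. Whether a read with several alignments was tallied only 1 time is not given, so these may not be shares of reads.

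The deposited counts were analysed in R 4.3.3 with edgeR 4.0.16: TMM normalisation, filterByExpr with its defaults, and quasi-likelihood tests, adjusted by Benjamini-Hochberg over 12663 genes, on 6 libraries with no covariate. The code was tested on simulated data. edgeR's common biological coefficient of variation came to 1.67%. Calls required an adjusted p under 0.01, and a fold over 1.5 where stated. Levels per length used merged exons of GENCODE release 44 on GRCh37, from which positions and overlaps also come. Each library was assigned to its group and replicate by its title. The genes and lists were chosen with earlier results of these data known. All 8 genes are named, and of each other list up to 4 genes with the smallest p-values may be named. Other list genes are given where they end a range, share a protein family with a member or were not called. CYB5B and CYB5R3 are given beside uncalled genes of their list. Neighbouring genes were chosen after the values were seen. A few list genes within the rule are not reported here, though they are included in the counts and medians of their lists. Alternatives were DESeq2's size factors, plain library sizes, DESeq2 1.42.0 (Wald test), no filter, at least 10 reads in every library, a robust fit, a replicate block, an adjusted p limit of 0.05, the longest transcript as length, and each library left out. Protein sequences were not used here.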

Additional observations from a re-analysis of the deposited data

How the results depend on the processing

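For LSS, CYP51A1, TM7SF2, LBR, NSDHL, HSD17B7 and DHCR7, each of the 13 other fits kept the direction and the side of the 0.01 limit. EBP kept its direction, but passed that limit with no filter (0.76, edgeR adjusted p = 0.00988) and with at least 10 reads in every library (0.75, edgeR adjusted p = 0.00948), where the number of genes tested differed. With single libraries left out its log2 fold change ran from 0.51 to 0.98, and it passed without control replicate 1 and without ADP-CM replicate 2 (0.89, edgeR adjusted p = 0.00829). Over the other alternatives its adjusted p ran from 0.00948 to 0.0892 (DESeq2). Thus the number of the 8 genes that rose was 1 with no filter, with at least 10 reads and at an adjusted p under 0.05, both with and without the fold of 1.5, and 0 to 1 with libraries left out. The number that fell past a fold of 1.5 was 1 to 2 with libraries left out, and 1 without control replicate 3. DESeq2's Wald test called 1015 genes lower and 1124 higher, against 1650 and 1707; the cause was not tested. With the longest transcript, 6 of the 8 genes kept their rank of level in control. Replicates with the same number did not deviate together (correlations over genes of 0.0726, 0.0141 and 0.0973), so the numbers were not treated as pairs. With a replicate block, 1716 genes were called lower and 1786 higher, 6 of the 8 genes fell and 0 rose. Depth limits EBP, TM7SF2 and HSD17B7 most, since they had 16 to 168 reads per library.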
